A study of Mus musculus with 30 samples.

Results

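The 39 protein-coding genes of the 4 mouse Hox clusters were followed through an AP-1 inhibition experiment in cultured sensory neurons. Members were taken from the deposited gene count table by symbol (Hoxa, Hoxb, Hoxc or Hoxd followed by a number, GENCODE M21), which gave 39 of 48795 listed genes. There are 11 Hoxa, 10 Hoxb, 9 Hoxc and 9 Hoxd genes. The libraries came from primary dorsal root ganglion (DRG) cultures of C57/Bl6 wild-type mice, enriched for neurons. In 10 DN libraries the cells had received A-Fos, a dominant negative form of Fos that pairs with Jun proteins and blocks their binding to DNA, through an adeno-associated virus with the PHP.S capsid, which favours peripheral neurons. In 10 GFP libraries the same kind of vector carried green fluorescent protein, and 10 Untransduced libraries received no vector. According to the series design, each mouse gave a culture that was split over the 3 conditions, so libraries with 1 replicate number are treated as parts of 1 culture. The titles separate 3 culture sets: replicates 1 to 3, called plain here, replicates 4 to 6, called 7DIV after the 7 days in vitro in their titles, and replicates 7 to 10, called dated. The age and sex of the mice, the spinal levels of the ganglia and the days in vitro of the plain and dated sets are not given in the labels.

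Hox genes encode homeodomain transcription factors that give cells along the body axis their regional identity. Within a cluster, genes are numbered from the end expressed most anteriorly (paralogue group 1) to the end expressed most posteriorly (group 13), and genes with the same number in different clusters are paralogues. Their proteins bind DNA with partners of the TALE class (Pbx, Meis and Pknox), retinoic acid activates the low-numbered genes in the embryo, and Polycomb and Trithorax group proteins keep the genes silent or active afterwards. In the nervous system Hox genes stay expressed in many neurons after development. In mouse DRG, Hoxd1 is known from developing nociceptors, where nerve growth factor signalling controls it.

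Library depth ran from 10.7 M to 39.1 M gene counts (M, 1e+06). Untransduced replicate 4 had the lowest total, against 24.1 M in the next lowest library, and its levels stood apart for many Hox genes, so results that rest on it are also given without it. Levels below are counts per 1e+06 counts (CPM) on TMM-scaled totals, and a gene passed the test when its adjusted p in edgeR was under 0.05. Sensory neuron markers summed to between 3208 and 5547 CPM in DN, between 2834 and 5083 CPM in GFP and between 3104 and 5465 CPM in Untransduced libraries over 13 genes, all of them detected. Fibroblast markers (7 genes) summed to medians of 4116 CPM in DN, 4336 CPM in GFP and 4420 CPM in Untransduced libraries, so other cells contributed RNA as well. Endothelial and macrophage markers were near the bottom, with sums of 6.00 to 41.6 CPM and 10.5 to 24.9 CPM over all libraries. In bulk RNA, fewer cells of a type and less RNA per cell cannot be told apart.

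All 39 Hox genes had at least 1 count, and 32 had enough reads to be tested: 9 Hoxa, 8 Hoxb, 8 Hoxc and 7 Hoxd genes. The 7 that were not tested were Hoxa13 with 80 reads, Hoxa11 with 55, Hoxd13 with 29, Hoxb1 with 23, Hoxc12 with 12, Hoxb13 with 7 and Hoxd12 with 1 read in 30 libraries together. Most of these sit at the posterior end of their cluster, and Hoxb1 sits at the anterior end. A library with no read of a gene allows up to 3 counts, which is between 0.0757 and 0.251 CPM depending on its depth. All Hox genes together made up 182 to 246 CPM in DN, 182 to 212 CPM in GFP and 179 to 269.9 CPM in Untransduced libraries, the highest being Untransduced replicate 4.

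To compare genes with each other, levels were divided by the length of annotated exons (CPM per kb). This level is less certain for genes that share exons with other annotated genes, above all Hoxd3 (62.8%), Hoxb3 (52.9%) and Hoxd4 (52.3%). How reads in shared exons were counted is not given. On that scale the most abundant member of each cluster was Hoxa5, Hoxb4, Hoxc6 and Hoxd8, all from the middle of the clusters. Hoxd8 stood first of the 39 genes, at 7.35 ± 1.25 CPM per kb in DN, 7.25 ± 1.80 in GFP and 7.36 ± 0.70 in Untransduced libraries (SD, n = 10 each). Hoxa5 had 5.38 ± 0.91 CPM per kb in DN, 6.09 ± 1.26 in GFP and 6.15 ± 1.29 in Untransduced libraries. Hoxc6 had 5.16 ± 0.64 CPM per kb in DN, 5.75 ± 0.53 in GFP and 6.44 ± 1.70 in Untransduced libraries, and it varied least between GFP libraries, with a coefficient of variation of 9.27%. Hoxa5, Hoxc6 and Hoxa4 followed Hoxd8 in the mean over all libraries, at 5.87, 5.78 and 5.23 CPM per kb. Their order was not tested. Hoxb4, next in that order, had 4.01 ± 0.46 CPM per kb in DN, 4.19 ± 0.55 in GFP and 4.55 ± 0.58 in Untransduced libraries.

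Summed by paralogue number, genes 4 to 8 held most of the Hox RNA per length, with 61.7% in DN, 65.7% in GFP and 66.3% in Untransduced libraries. Genes 1 to 3 held 22.8%, 17.4% and 18.0% in DN, GFP and Untransduced libraries. The 4 genes numbered 9 held 11.2%, 11.8% and 11.2% in the same order of conditions, and the 12 genes numbered 10 to 13 held 4.35%, 5.05% and 4.56%. These shares sum to the whole, so a rise of 1 gene lowers the others. The Hoxd cluster summed to 19.6 ± 3.33 CPM per kb in DN, 14.4 ± 3.58 in GFP and 14.8 ± 2.13 in Untransduced libraries, but without Hoxd1 to 12.6 ± 1.92, 12.7 ± 3.17 and 13.1 ± 1.61.

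**Figure D1:**
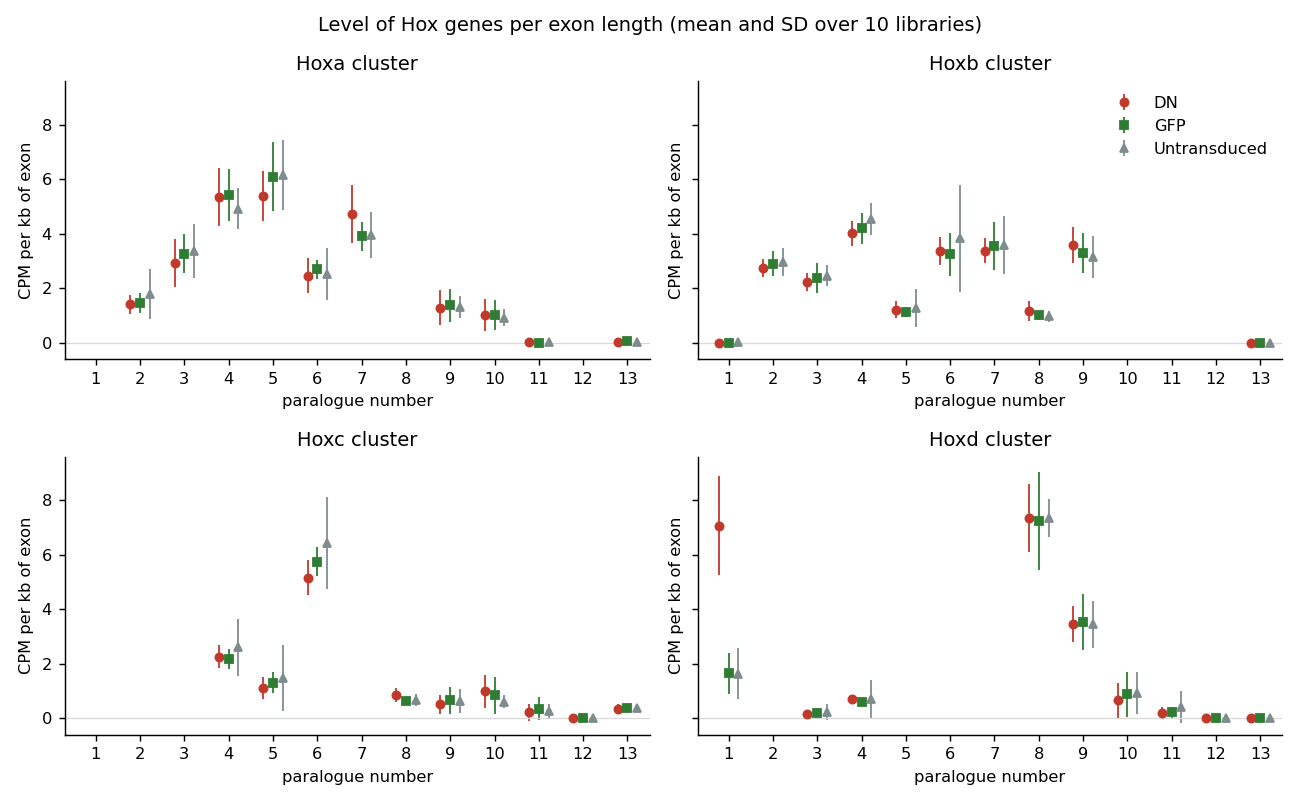
Level of the Hox genes, 1 left out, in CPM per kb of exon (y axis, linear) by paralogue number (x axis), 1 panel per cluster; points are means and bars SDs over 10 DN, 10 GFP and 10 Untransduced libraries. Levels are highest among genes 4 to 8 and low from 10 upward in all conditions, and Hoxd1 is the gene at which DN, at 7.07 CPM per kb, stands away from GFP at 1.66 and Untransduced at 1.64.

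The comparison of DN with GFP asks what blocking AP-1 changes beyond the vector itself. Hoxd1 rose in DN, and it was the 1 Hox gene of 32 tested that passed. Over all 18063 tested genes 11.4% passed in either direction and 7.98% passed as higher in DN. Of the 32 genes, 12 had a log2 fold change above 0 and 20 below, with a median of -0.02 against -0.00086 over all genes. After Hoxd1 the values ran between 0.37 (Hoxc8) and -0.64 (Hoxc11). By cluster they lay between -0.19 (Hoxa3) and 0.27 (Hoxa7) for 8 Hoxa genes, between -0.08 (Hoxb3) and 0.18 (Hoxb8) for 8 Hoxb genes, and between -0.64 (Hoxc11) and 0.37 (Hoxc8) for 8 Hoxc genes. The widest of these values belonged to scarce genes: Hoxc11 averaged 0.71 CPM and Hoxc8 1.86 CPM in GFP libraries, against 10.1 CPM for Hoxb3.

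At an unadjusted p under 0.05 in edgeR there were 4 of 32 Hox genes, beside 3994 of 18063 genes in all. Beside Hoxd1 these were Hoxc8, with a log2 fold change of 0.37 (SE 0.15, adjusted edgeR p = 0.140), Hoxa7, with 0.27 (SE 0.11, adjusted edgeR p = 0.143), and Hoxa3, with -0.19 (SE 0.09, adjusted edgeR p = 0.187). None of the 3 passed. Their directions also varied over cultures, with Hoxc8 higher in DN in 7 of 10, Hoxa7 higher in 8 of 10 and Hoxa3 lower in 7 of 10. Part of the exon length of Hoxa7 (20.4%) and Hoxa3 (27.1%) is shared with other annotated transcripts. The sources used here do not say whether counting used strand, so reads of a gene and of an antisense partner cannot be told apart.

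**Figure D2:**
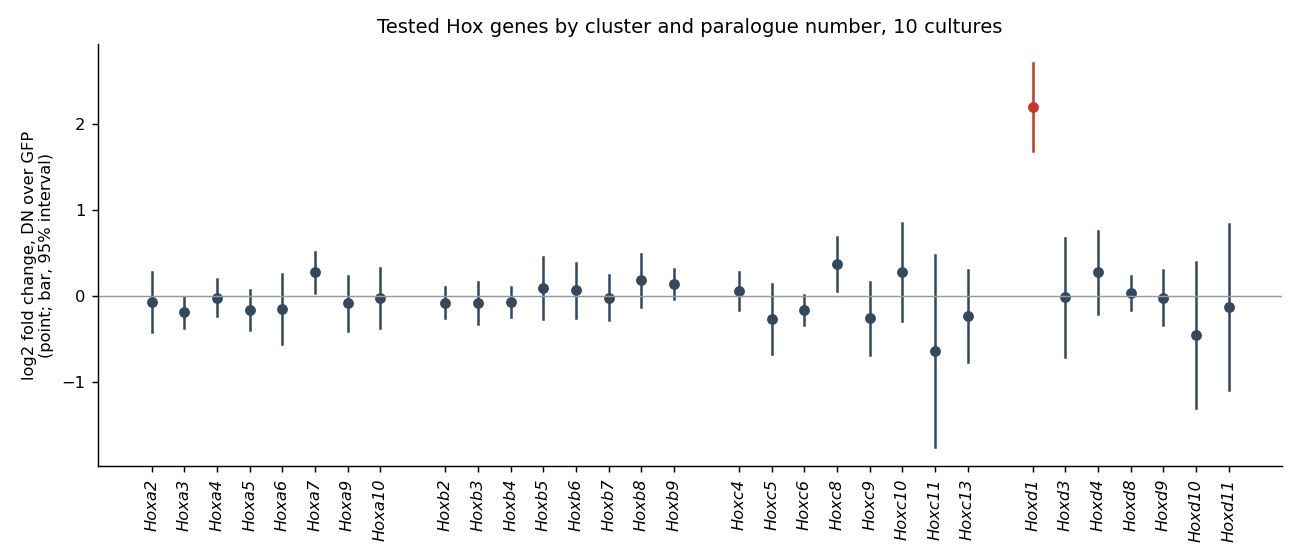
Log2 fold change of DN over GFP (y axis) for 31 of the 32 tested Hox genes, ordered by cluster and paralogue number (x axis); points are edgeR estimates over 10 cultures and bars 95% intervals. Hoxd1, in red, lies at 2.19, and the other genes lie between -0.64 and 0.37.

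Hoxd1 (ENSMUSG00000042448) lies on chromosome 2 of GRCm38 from 74762980 to 74765142 on the plus strand, at the anterior end of the Hoxd cluster, and shares no exon base with another annotated gene. It had a lowest, median and highest level of 7.03, 12.99 and 18.4 CPM in DN, of 1.60, 2.90 and 5.93 CPM in GFP and of 1.24, 2.57 and 6.51 CPM in Untransduced libraries. The lowest DN library lay above the highest GFP and Untransduced library, a separation that 0.847% of all tested genes showed between DN and GFP and 0.770% between DN and Untransduced. Mean levels were 13.2 ± 3.39 CPM in DN, 3.09 ± 1.39 in GFP and 3.06 ± 1.73 in Untransduced libraries (SD, n = 10 each). The difference between DN and GFP was 4.56-fold (log2 fold change 2.19, SE 0.25, 95% interval 1.68 to 2.70, adjusted edgeR p = 1e-06), with DN higher in 10 of 10 cultures. Hoxd1 was chosen for description with this rise already known, so its size is a description of these cultures. Per exon length, Hoxd1 ranked 2 among the 39 Hox genes in DN and 16 in GFP.

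The rise appeared in each culture set, with different sizes. In the plain set Hoxd1 had 17.2, 18.4 and 11.5 CPM in DN, against 1.60, 1.79 and 1.78 CPM in GFP. In the 7DIV set it had 14.3, 10.9 and 10.6 CPM in DN, against 5.93, 3.96 and 4.51 CPM in GFP. In the dated set it had 15.6, 12.7, 13.3 and 7.03 CPM in DN, against 3.20, 3.11, 2.29 and 2.69 CPM in GFP. The DN ranges of the 3 sets overlapped, whereas GFP libraries were lowest in the plain and highest in the 7DIV set, with no overlap between sets. The fold changes were 8.97 in the plain set (log2 3.16, SE 0.33, adjusted edgeR p = 9.76e-07), 2.49 in the 7DIV set (log2 1.32, SE 0.30, adjusted edgeR p = 0.0186) and 4.19 in the dated set (log2 2.07, SE 0.27, adjusted edgeR p = 5.01e-05). In each set Hoxd1 was again the 1 Hox gene of 32 that passed, where 8.00%, 2.61% and 3.16% of all genes passed in the plain, 7DIV and dated sets, and 5.61%, 1.89% and 2.05% passed as higher in DN. These calls came from the model of all 30 libraries. With the plain libraries fitted alone, Hoxa3 and Hoxa7 also passed, beside Hoxd1. Fitted on the 7DIV libraries alone, the adjusted edgeR p of Hoxd1 was 0.628 at the same log2 fold change of 1.32. That fit holds 3 cultures, among them Untransduced replicate 4.

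A joint test of the differences between sets gave p = 0.00136 for Hoxd1 in edgeR's quasi-likelihood test and an adjusted p of 0.137, so Hoxd1 did not pass. None of the 32 Hox genes passed that test, 2 had an unadjusted p under 0.05 (Hoxd1 and Hoxb7), and 0.365% of all genes passed. This outcome for Hoxd1 depended on other libraries and genes in the fit. Without Untransduced replicate 4 the adjusted edgeR p was 0.00302, and with no filter on low counts it was 3.27e-06. With median-ratio scaling the adjusted edgeR p was 0.136.

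**Figure D3:**
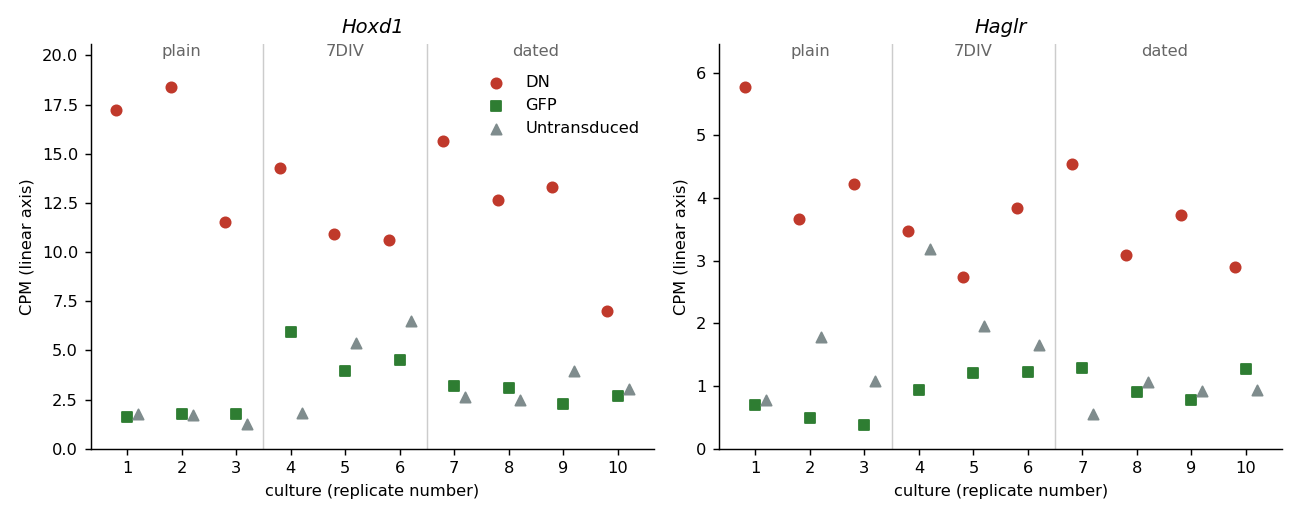
CPM of Hoxd1 (left) and of the long noncoding RNA Haglr (right) on linear y axes by culture (x axis, replicate number), 1 point per library; grey lines separate the plain, 7DIV and dated sets. Every DN point of Hoxd1 lies at 7.03 CPM or above, and every GFP point at 5.93 CPM or below; for Haglr the DN points start at 2.73 CPM and the GFP points end at 1.28 CPM.

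Of the tested genes around Hoxd1, the long noncoding RNA Haglr was also higher in DN. Haglr (ENSMUSG00000075277, chromosome 2, 74748422 to 74762896, minus strand) is annotated as a bidirectional promoter transcript, and 83 bases separate its first base from that of Hoxd1. It was singled out after its values were seen. Haglr had 2.73 to 5.77 CPM in DN, 0.387 to 1.28 CPM in GFP and 0.560 to 3.18 CPM in Untransduced libraries. The DN and GFP libraries did not overlap, while 1 Untransduced library, replicate 4 at 3.18 CPM, lay within the DN range. Mean levels were 3.80 ± 0.89 CPM in DN, 0.921 ± 0.327 in GFP and 1.39 ± 0.778 in Untransduced libraries (SD, n = 10 each). DN exceeded GFP 4.20-fold (log2 fold change 2.07, SE 0.26, 95% interval 1.53 to 2.61, adjusted edgeR p = 3.38e-06) and exceeded Untransduced 2.93-fold (log2 1.55, SE 0.26, adjusted edgeR p = 0.000139).

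By set, the log2 fold change of Haglr between DN and GFP was 3.10 in plain, 1.56 in 7DIV and 1.75 in dated cultures, each past the test, with adjusted edgeR p-values of 8.56e-06, 0.0202 and 0.00144. Its difference between sets did not pass (adjusted edgeR p = 0.348). Within cultures, the change of Hoxd1 exceeded that of Haglr by a mean of 0.12 on the log2 scale (SD 0.45, n = 10) and did so in 7 of 10 cultures. This is a description, since Haglr was singled out for its change. There were 29.8 ± 6.79 Haglr reads for every 100 Hoxd1 reads in DN, 31.8 ± 9.83 in GFP and 58.9 ± 48.8 in Untransduced libraries. The medians were 28.5, 29.9 and 39.5 in the same order. The Untransduced mean was raised by replicate 4, which had 22 Hoxd1 reads and the highest ratio, 172.7. The interval between the pair of start sites is printed to show how close they lie, beside the stretches before Hoxd8, the most abundant Hox gene, and Hoxd11, the 1 Hox promoter with a consensus AP-1 motif. Sequences are RefSeq, GRCm38.p6, plus strand, and end at the base before the RefSeq gene start. For Hoxd11 the last base printed, 74679557, is the gene start in GENCODE. Capitals mark the bases between the Haglr and Hoxd1 starts in the first, nothing in the second and the motif in the last.
Hoxd1, chr2:74762730-74762979: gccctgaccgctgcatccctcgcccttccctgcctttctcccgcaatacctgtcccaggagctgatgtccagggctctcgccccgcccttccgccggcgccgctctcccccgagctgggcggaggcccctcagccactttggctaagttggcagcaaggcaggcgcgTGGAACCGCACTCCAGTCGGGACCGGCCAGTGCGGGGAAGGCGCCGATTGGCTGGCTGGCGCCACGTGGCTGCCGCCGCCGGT
Hoxd8, chr2:74704365-74704614: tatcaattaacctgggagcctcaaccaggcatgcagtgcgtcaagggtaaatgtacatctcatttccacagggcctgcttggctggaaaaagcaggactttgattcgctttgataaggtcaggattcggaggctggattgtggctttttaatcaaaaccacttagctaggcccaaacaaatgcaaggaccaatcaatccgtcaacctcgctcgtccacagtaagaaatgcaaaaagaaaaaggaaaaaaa
Hoxd11, chr2:74679308-74679557: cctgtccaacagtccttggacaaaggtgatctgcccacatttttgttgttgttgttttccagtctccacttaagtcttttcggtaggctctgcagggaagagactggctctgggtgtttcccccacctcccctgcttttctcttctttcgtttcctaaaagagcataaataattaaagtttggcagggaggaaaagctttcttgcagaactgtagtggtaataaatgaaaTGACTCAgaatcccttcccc

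RefSeq promoter windows, from 250 bases before to 50 bases after a gene start, were at hand for 22 of the 39 Hox genes in 24 entries. The AP-1 consensus TGANTCA, searched on both strands, occurred in 1 of them, before Hoxd11, where TGACTCA begins 20 bases before the RefSeq start. Among all 32851 promoter windows, 7.81% held that motif. The cyclic AMP response element TGACGTCA, which some Fos and Jun family dimers with ATF proteins also bind, occurred in none of the Hox windows and in 1.79% of all windows. Hoxd11 itself did not pass between DN and GFP.

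None of the other tested Hoxd genes passed between DN and GFP. Hoxd3 and Hoxd4, its nearest Hox neighbours, which pattern the neck in mouse embryos, had log2 fold changes of DN over GFP of -0.01 (95% interval -0.70 to 0.67) and 0.28 (-0.20 to 0.76). These 2 genes share 62.8% and 52.3% of their exon length with other annotated genes, among them each other and Gm28230. Of the exon length of Hoxd3, 8.78% is shared with the antisense genes Haglr and Hoxd3os1. The counts of Hoxd3 and Hoxd4 are therefore less certain. Hoxd8 and Hoxd9, which share no exon base with another gene, had log2 fold changes of 0.03 (-0.17 to 0.23) and -0.02 (-0.33 to 0.30). Hoxd10 and Hoxd11, which pattern lumbosacral and limb regions, had -0.45 (-1.29 to 0.39) and -0.13 (-1.09 to 0.84). The interval of Hoxd1 began at 1.68, above the upper end of each neighbour's interval. Against Untransduced the neighbours did not pass either, with log2 fold changes of DN over Untransduced between -0.62 (Hoxd10) and 0.21 (Hoxd4). For Hoxd4, Untransduced replicate 4 stood apart, at 7.87 CPM against 0.996 to 1.87 CPM in the other Untransduced libraries. The values of Hoxd4 under alternatives to this comparison were added after seeing the data. Without culture 4, Hoxd4 passed as higher in DN, with a log2 fold change of 0.49 (adjusted edgeR p = 0.0339). Without the Untransduced library alone it was 0.46 (adjusted edgeR p = 0.0532), and over its alternatives the adjusted edgeR p ranged from 0.0339 to 0.865. DN exceeded Untransduced for Hoxd4 in 8 of 10 cultures and exceeded GFP in 6 of 10.

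The counts behind these values differ a great deal between neighbours. Hoxd8 had 13.7, 20.3 and 25.1 CPM as lowest, median and highest level in DN, against 11.6, 18.8 and 29.1 CPM in GFP and 16.0, 20.6 and 22.5 CPM in Untransduced libraries. Hoxd9 had 5.01, 7.51 and 9.26 CPM in DN, against 3.86, 7.54 and 10.5 CPM in GFP and 3.27, 7.34 and 9.61 CPM in Untransduced libraries. Both genes overlapped fully between conditions, with Hoxd8 higher in DN than in GFP in 5 of 10 cultures and Hoxd9 in 4 of 10. Hoxd4 had 1.55, 2.06 and 2.52 CPM in DN, against 1.17, 1.74 and 2.52 CPM in GFP and 1.00, 1.53 and 7.87 CPM in Untransduced libraries. Hoxd3 had 0.245, 0.656 and 1.79 CPM in DN, against 0.488, 0.583 and 1.69 CPM in GFP and 0.202, 0.663 and 4.35 CPM in Untransduced libraries. The highest Untransduced value of Hoxd3 and Hoxd4 belongs to Untransduced replicate 4. Hoxd10 had 0, 0.793 and 3.44 CPM in DN, against 0.160, 1.11 and 4.43 CPM in GFP and 0.163, 1.42 and 4.67 CPM in Untransduced libraries. Hoxd11 had 0, 0.665 and 2.34 CPM in DN, against 0.172, 0.588 and 2.90 CPM in GFP and 0, 0.816 and 8.37 CPM in Untransduced libraries. Both overlapped widely between conditions, and the 0 values in DN came from replicate 8.

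Within cultures, the change of Hoxd1 exceeded that of each of the 6 neighbours in 10 of 10 cultures. The mean excess on the log2 scale was 2.24 over Hoxd3 (SD 0.71), 1.91 over Hoxd4 (SD 0.78), 2.10 over Hoxd8 (SD 0.79), 2.14 over Hoxd9 (SD 0.97), 2.72 over Hoxd10 (SD 1.61) and 2.35 over Hoxd11 (SD 1.51). Hoxd1 was chosen with its rise known, so these differences are given as a description, with no test. The smallest excess in a single culture was 0.32, over Hoxd11.

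The neighbours also stayed apart from Hoxd1 within each set. Their log2 fold changes of DN over GFP ran from 0.01 (Hoxd9) to 0.65 (Hoxd3) in plain, from -0.98 (Hoxd11) to 0.05 (Hoxd8) in 7DIV and from -0.66 (Hoxd10) to 0.52 (Hoxd4) in dated cultures. None passed in any set. The intervals of the scarce genes were wide, as for Hoxd11 in the plain set, at 0.28 with an interval of -1.53 to 2.09. For Hoxd8 the interval in the plain set was -0.20 to 0.54, while Hoxd1 stood at 3.16 there.

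**Figure D4:**
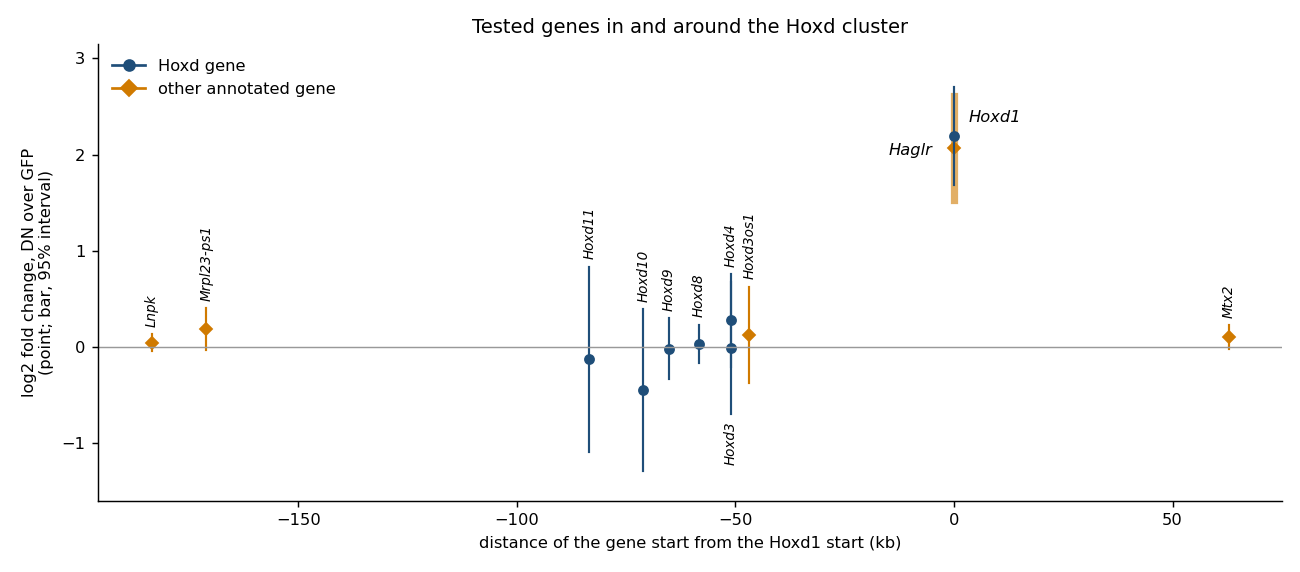
Log2 fold change of DN over GFP (y axis) of the tested genes in and around the Hoxd cluster by the distance of their annotated start from the Hoxd1 start in kb (x axis); points are edgeR estimates and bars 95% intervals, with the wide bar belonging to Haglr. Hoxd1 at 2.19 and Haglr at 2.07 stand above all other genes shown, which lie between -0.45 and 0.28.

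Beyond the Hox genes, 2 annotated genes that start inside the Hoxd cluster were tested, Haglr and Hoxd3os1. Hoxd3os1, antisense to Hoxd3, had a log2 fold change of 0.13 (95% interval -0.37 to 0.63). Outside the cluster, within 200 kb, the tested genes were Lnpk, which shapes the endoplasmic reticulum, Mtx2, which serves protein import into mitochondria, and the pseudogene Mrpl23-ps1. Their log2 fold changes were 0.05 (-0.04 to 0.13), 0.10 (-0.03 to 0.22) and 0.19 (-0.03 to 0.41), and none passed. Inside the other 3 clusters 7 genes beside the Hox genes were tested, 4 in Hoxa and 3 in Hoxb, and none passed. These include the noncoding RNAs Hotairm1 at -0.40 (adjusted edgeR p = 0.497), and Hoxaas2 at 0.54 (adjusted edgeR p = 0.0936). In the flanks of these clusters 1 of 10 tested genes passed, Calcoco1 next to the Hoxc cluster, at 0.22 (adjusted edgeR p = 0.0136). Over all tested genes 11.4% passed between DN and GFP.

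Hoxb1, a paralogue of Hoxd1, was listed with 23 reads in 8 of the 30 libraries, of which 11 were in 1 library, and was not tested. The most abundant members of the other clusters did not pass between DN and GFP, with log2 fold changes of -0.16 for Hoxa5 (-0.39 to 0.06), -0.07 for Hoxb4 (-0.24 to 0.11) and -0.16 for Hoxc6 (-0.33 to 0.01).

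DN was also compared with Untransduced, which shares the DN libraries with the comparison above. Here 2 of 32 Hox genes passed, Hoxd1 as higher and Hoxc6 as lower, where 13.2% of all genes passed, 8.94% as higher in DN. Hoxd1 had a log2 fold change of 2.20 (SE 0.25, adjusted edgeR p = 1.3e-06) and was higher in 10 of 10 cultures. Hoxc6, a gene of the forelimb and upper thoracic level, had 9.83, 12.4 and 14.6 CPM as lowest, median and highest level in DN, against 12.2, 15.0 and 26.5 CPM in Untransduced libraries. The ranges overlapped, DN was lower in 8 of 10 cultures, and the highest value was that of Untransduced replicate 4. The log2 fold change was -0.30 (SE 0.09, adjusted edgeR p = 0.0192) and, without that library, -0.23 (adjusted edgeR p = 0.0271). Hoxc6 no longer passed without replicate 1 (adjusted edgeR p = 0.0682), without replicate 5 (adjusted edgeR p = 0.0521) or when only the 2 conditions were fitted (adjusted edgeR p = 0.0865). Without replicate 4 Hoxd4 also passed, as described above, and without replicate 10 Hoxb9 also passed as higher in DN (log2 fold change 0.27, adjusted edgeR p = 0.0354). This gave 3 genes each time. The values of Hoxb9 under alternatives, like those of Hoxd4, were added after seeing the data.

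GFP against Untransduced asks what the vector alone changes. By edgeR no Hox gene of 32 passed, none had an unadjusted p under 0.05, and DESeq2 also called none. Over all 18063 genes 0% passed, and 373 had an unadjusted p under 0.05. Hox log2 fold changes of GFP over Untransduced ran between -0.49 and 0.23, with a median of -0.03 against -0.0031 over all genes. Hoxd1 averaged 3.09 ± 1.39 CPM in GFP and 3.06 ± 1.73 CPM in Untransduced libraries.

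Culture sets were compared within the 10 GFP libraries, since each set comes from its own mice. Set and mouse therefore cannot be told apart, nor can the days in vitro and the preparation. In 7DIV against plain cultures, 2 of 32 Hox genes passed, where 23.7% of all genes passed. Hoxd1 was 2.75-fold higher, at 4.80 ± 1.02 CPM in 7DIV against 1.72 ± 0.11 CPM in plain GFP libraries (SD, n = 3 each). The log2 fold change was 1.46 (SE 0.23, adjusted edgeR p = 0.000533). It passed without each of the 10 replicates in turn, with adjusted edgeR p-values up to 0.00449. In Untransduced libraries Hoxd1 had 1.84, 5.35 and 6.51 CPM in 7DIV against 1.78, 1.70 and 1.24 CPM in plain cultures, and replicate 4, at 1.84 CPM, lay near the plain level. The log2 fold change there was 1.55 with all Untransduced libraries (adjusted edgeR p = 0.0305) and 1.92 without replicate 4 (adjusted edgeR p = 1.12e-05). Hoxd3 was 2.34-fold higher, at 1.25 ± 0.40 CPM in 7DIV against 0.528 ± 0.027 CPM in plain GFP libraries (adjusted edgeR p = 0.0445). It no longer passed without replicate 1, 2, 3, 4, 6, 7, 8 or 9 (adjusted edgeR p between 0.0547 and 0.183) or in Untransduced libraries (adjusted edgeR p = 0.0771 with all and 0.201 without replicate 4).

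In 7DIV against dated cultures, 4 of 32 Hox genes passed, where 35.6% of all genes passed. Hoxa3, which patterns pharyngeal and neck structures, was 1.53-fold higher in 7DIV, at 23.2 ± 1.08 CPM against 15.3 ± 2.43 CPM in dated GFP libraries (adjusted edgeR p = 0.00223), and passed under all 13 alternatives run for it. Hoxd1 was 1.71-fold higher, at 4.80 ± 1.02 CPM in 7DIV against 2.82 ± 0.42 CPM in dated libraries (adjusted edgeR p = 0.00966), and no longer passed without replicate 4 (adjusted edgeR p = 0.0625). In Untransduced libraries this difference of Hoxd1 passed without replicate 4 (adjusted edgeR p = 0.00152) and not with it (0.218). Hoxd3 was 2.22-fold higher (adjusted edgeR p = 0.0279) and no longer passed without replicate 4, 6, 7 or 9 (adjusted edgeR p between 0.0586 and 0.142) or in Untransduced libraries without replicate 4 (adjusted edgeR p = 0.0839), and passed with it (0.0311). Hoxb9, a thoracic-level gene, was lower, at 6.45 ± 0.90 CPM in 7DIV against 9.68 ± 1.33 CPM in dated libraries (adjusted edgeR p = 0.0145), and no longer passed without replicate 5 (adjusted edgeR p = 0.0756).

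In dated against plain cultures, 4 of 32 Hox genes passed, where 17.7% of all genes passed. Hoxb6 was 1.55-fold higher, at 7.76 ± 1.15 CPM in dated against 4.92 ± 0.39 CPM in plain libraries (adjusted edgeR p = 0.0199). Hoxa2 was 1.64-fold higher, at 3.02 ± 0.43 CPM in dated against 1.80 ± 0.41 CPM in plain libraries (adjusted edgeR p = 0.0459), and Hoxd1 1.61-fold higher (adjusted edgeR p = 0.0441). Hoxa3 was 1.45-fold lower, at 15.3 ± 2.43 CPM in dated against 21.9 ± 2.81 CPM in plain libraries (adjusted edgeR p = 0.0103). Each of these 4 calls was lost when certain single cultures were left out. Hoxd1 did not pass without replicate 1, 2, 3, 6, 7 or 8 (adjusted edgeR p between 0.0600 and 0.132), and Hoxa2 without replicate 1, 3, 5, 6, 7, 8, 9 or 10 (0.0576 to 0.168). Hoxa3 did not pass without replicate 2 or 3 (adjusted edgeR p 0.0544 and 0.0577), and Hoxb6 without replicate 1 or 2 (0.0742 and 0.0697). In Untransduced libraries without replicate 4, Hoxa2 and Hoxb6 did not pass (adjusted edgeR p 0.131 and 0.433), and with it none of the 4 did (0.243 to 0.865).

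Among the tested genes numbered 10 and above, which specify lumbar, sacral and tail identity, 4 varied most between cultures. The spinal levels taken for each culture are not given. In GFP libraries the coefficient of variation was 120% for Hoxc11, 94.4% for Hoxd11, 92.1% for Hoxd10 and 80.3% for Hoxc10, but 53.6% for Hoxa10 and 30.5% for Hoxc13. A wide spread was not limited to these numbers, with 76.3% for Hoxc9, 51.6% for Hoxd3 and 44.9% for Hoxd1. Hoxd10 had its 3 highest cultures in DN (2.26, 3.44 and 2.38 CPM), GFP (3.52, 4.43 and 2.79 CPM) and Untransduced libraries (4.67, 2.93 and 2.83 CPM) at the same replicate numbers, 3, 4 and 6. Culture 5 of the 7DIV set had 0.0816 CPM in DN, 0.436 CPM in GFP and 0.163 CPM in Untransduced libraries, far below the other cultures of its set. Hoxc11 had 1.95, 2.31 and 1.51 CPM in DN, GFP and Untransduced libraries of culture 4, and in culture 5 it had no read in DN and GFP and 0.0817 CPM in the Untransduced library. The share of Hox RNA per length in genes 10 to 13 ran from 1.31% to 12.04% over the 30 libraries.

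**Figure D5:**
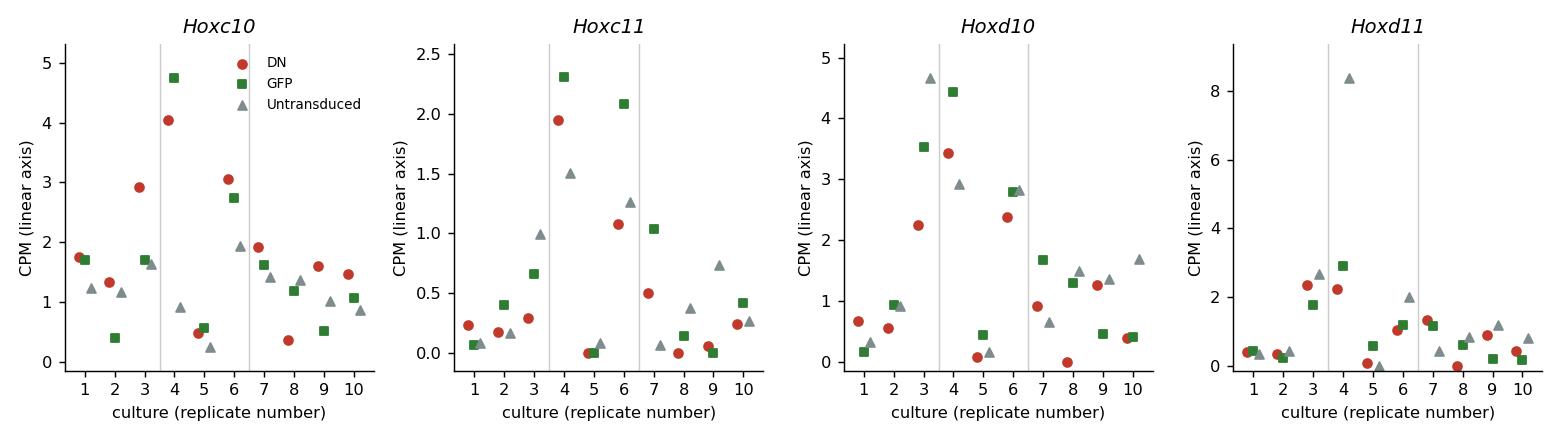
CPM (linear y axes) of Hoxc10, Hoxc11, Hoxd10 and Hoxd11 by culture (x axis, replicate number), 1 point per library of DN, GFP and Untransduced; grey lines separate the plain, 7DIV and dated sets. Culture 4 ranks first or second of 10 in DN and GFP for all 4 genes, and the isolated high point of Hoxd11 is Untransduced replicate 4 at 8.37 CPM.

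Partners and regulators of Hox genes were counted in lists beside the 11.4% of all genes that passed between DN and GFP. Of 12 genes listed for TALE proteins and their partners, all tested, 3 were higher and 1 lower in DN, with a median log2 fold change of -0.07. Pknox2 rose to 33.8 ± 5.19 CPM in DN, against 23.1 ± 3.17 CPM in GFP (log2 fold change 0.54, SE 0.09, adjusted edgeR p = 5.67e-05). Meis2 rose to 7.81 ± 1.37 CPM in DN, against 5.13 ± 1.78 CPM in GFP (0.66, SE 0.11, adjusted edgeR p = 7.23e-05). Pbx2 was higher by 0.15 on the log2 scale (adjusted edgeR p = 0.0148). Against Untransduced, where 13.2% of all genes passed, 3 of the 12 were higher, again Pknox2, Meis2 and Pbx2, and 2 were lower, among them Tgif1 (-0.27, adjusted edgeR p = 0.0167).

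Of 21 genes of retinoic acid signalling and other inputs to the clusters, 17 were tested and 1 was higher in DN than in GFP. This was Cyp26b1, which breaks down retinoic acid, at 27.6 ± 9.20 CPM in DN against 19.1 ± 9.75 CPM in GFP (log2 fold change 0.64, SE 0.18, adjusted edgeR p = 0.0179), and it did not pass against Untransduced. Of 32 Polycomb genes, all tested, 3 were higher in DN and none lower, among them Cbx7 (log2 fold change 0.39) and Ezh1 (0.23). Cbx7 encodes a chromodomain subunit of Polycomb repressive complex PRC1, and Ezh1 a histone H3 methyltransferase of PRC2. Against Untransduced, where 8.94% of all genes passed as higher, 2 of the 32 were higher, Cbx7 among them. Of 18 genes for Trithorax group proteins, histone demethylases and CTCF, all tested, none passed against GFP by edgeR, and Psip1 was higher against Untransduced (0.27).

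Markers of cell types moved beside these values. Of 13 sensory neuron markers, 7 were higher and 2 lower in DN than in GFP, with a median log2 fold change of 0.40 against -0.00086 over all genes. Over all genes 11.4% passed in either direction and 7.98% passed as higher in DN. Avil, Prph and Elavl4 were 1.67-fold, 1.53-fold and 1.46-fold higher, while Tubb3 and Nefl were 1.65-fold and 1.39-fold lower. The summed level of the 13 markers had medians of 4645 CPM in DN, 4552 CPM in GFP and 4104 CPM in Untransduced libraries, with overlapping ranges. In the lists for other cell types, 1 member each was lower in DN for satellite glia (Glul), Schwann cells (S100b), fibroblasts (Thy1), macrophages (Csf1r) and pericytes (Mcam). Of the endothelial markers Flt1 was lower and Tek higher. Median log2 fold changes of DN over GFP were -0.10 for satellite glia, -0.02 for Schwann cell and -0.27 for endothelial markers. They were -0.33 for macrophage and -0.01 for pericyte markers. Against Untransduced no endothelial, macrophage or pericyte marker passed as lower, and 1 endothelial marker passed as higher. The satellite glia, Schwann cell and fibroblast lists again had 1 lower member each. Thy1 was the 1 of 7 tested genes of the fibroblast list that passed, and the median log2 fold change of that list was 0.03. No test asked whether the fall of Thy1 reflects a change of fibroblasts. Whether these shifts bear on the level of Hoxd1 was not tested.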

How the data were processed

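RNA was measured in 30 libraries, 10 for each condition, extracted with an RNeasy Micro kit and built with a TruSeq kit, per the labels' protocols. The authors deposited raw read counts per Ensembl gene, and per the submitters' processing notes reads went through bcl2fastq 2.17, STAR and HTSeq on GRCm38/mm10. The sources used here name no settings, strandedness or annotation release. A deposited table of repeat intervals was not used here. Symbols, positions and exon lengths came from GENCODE M21, promoters from RefSeq (GRCm38.p6).

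Counts were fitted in R 4.3.3 with edgeR 4.0.16: filterByExpr by condition (18063 of 33717 genes with a count kept), TMM scaling and robust quasi-likelihood models of all 30 libraries, with condition and replicate number as a block. Adjustment was by Benjamini-Hochberg over all tested genes, with a threshold of 0.05. Set effects came from interaction terms, and set contrasts from the 10 GFP libraries (18633 genes tested). The standard error is the log2 fold change over the root of F. Levels are CPM on TMM-scaled totals, and within-culture log2 differences carry a prior count of 2. Limits from a count of 0 (3 counts) cover counting error only. Alternatives were median-ratio and upper-quartile scaling, no filter, DESeq2 1.42.0, no block, fewer libraries and leaving out each replicate; the fit was tested on simulated data. Pairing rests on the series design: after condition and set were taken off, 8 of 30 same-number pairs correlated above 0.1 across genes (median r 0.063, against -0.039 for other pairs). All members of the Hox rule enter the counts. Full statistics go to those past a test, to all tested Hoxd genes, to the paralogues of Hoxd1 and to the most abundant gene of each cluster. Up to 4 genes of each other list are named. Results of some single genes are not reported here, in text or plots; counts and sums include them. The members, the lists and these rules were chosen with earlier results of these data known.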

Additional observations from a re-analysis of the deposited data

Results flagged for a closer look

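In 19 of 99 groups of 10 libraries examined (the tested Hox genes and Haglr in 3 conditions), 1 library lay far from the other 9 by Dixon's criterion. For independent, normally distributed values chance alone flags about 1 group in 20. These groups reuse the same 30 libraries and the shape of the CPM values was not checked, so 19 of 99 cannot be set against that rate. Untransduced replicate 4, the shallowest library, was that library in 12 groups. It was high at 7.45 CPM for Hoxa2, 15.3 CPM for Hoxb4, 9.04 CPM for Hoxb5, 18.3 CPM for Hoxb6, 14 CPM for Hoxc4, 14.8 CPM for Hoxc5, 26.5 CPM for Hoxc6, 4.19 CPM for Hoxc9, 4.35 CPM for Hoxd3, 7.87 CPM for Hoxd4 and 8.37 CPM for Hoxd11. It was low at 3.27 CPM for Hoxd9, against 6.36 to 9.61 CPM in the other Untransduced libraries. For Hoxd4 the other 9 lay between 0.996 and 1.87 CPM, and for Hoxb6 between 4.91 and 7.41 CPM.

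DN replicate 4 was high for Hoxa9 (16.3 CPM), Hoxa10 (8.10 CPM), Hoxc4 (8.27 CPM) and Hoxc9 (3.44 CPM). Its culture was also high for Hoxc9 in the GFP library (4.43 CPM) and in the Untransduced library (4.19 CPM). GFP replicate 4 was low for Hoxb7 (2.12 CPM, the others 5.14 to 7.35 CPM), GFP replicate 10 was high for Hoxb2 (13.6 CPM), and DN replicate 1 was high for Hoxd3 (1.79 CPM).

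For 2 genes every 7DIV culture moved one way and every dated culture the other between DN and GFP. Hoxb2 had mean log2 differences of 0.118 in 7DIV and -0.222 in dated cultures, and Hoxb7 of 0.404 in 7DIV and -0.264 in dated cultures. The difference between these 2 sets was not tested on its own. The joint test over the 3 sets did not pass for either gene (adjusted edgeR p = 0.817 for Hoxb2 and 0.476 for Hoxb7).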

How the results depend on the processing

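Hoxd1 was the 1 Hox gene past the test between DN and GFP under all 17 alternatives, with a log2 fold change between 2.04 and 2.29, and Haglr, whose alternatives were added after seeing the data, kept between 1.94 and 2.18. Without the replicate block, 1 Hox gene passed for DN against GFP, 2 for DN against Untransduced and 0 for GFP against Untransduced, as with it. For DN against Untransduced the count of 2 became 1 with only the 2 conditions compared, and ranged from 1 to 3 with a replicate left out. For differences of the DN effect between sets the count of 0 became 1 (Hoxd1) without Untransduced replicate 4, and 1 with no filter on low counts; the cause was not tested. Over all genes, calls between DN and GFP numbered 3239 without that library and 2054 with it. Calls for DN against Untransduced numbered 1333 with only those 2 conditions fitted and 2382 with all. Calls for the differences between sets numbered 544 without that library, 506 with no filter, 73 with median-ratio scaling and 66 in the main fit. Fits of each set alone, which hold fewer libraries, gave 3 Hox genes in place of 1 in plain (Hoxa3, Hoxa7 and Hoxd1) and 0 in place of 1 in 7DIV. In the model of all 30 libraries 8.00% of all genes passed in plain and 2.61% in 7DIV. Set contrasts depended most on single cultures: with a replicate left out, dated against plain gave 1 to 5 genes, 7DIV against plain 1 to 5 and 7DIV against dated 2 to 7. With Untransduced libraries other than replicate 4 in place of GFP, 7DIV against plain gave 4 and 7DIV against dated gave 7. With all of them, a fit added after seeing the data, 7DIV against plain gave 4, 7DIV against dated 6 and dated against plain 0. In the main GFP fits 23.7% of all genes passed for 7DIV against plain and 35.6% for 7DIV against dated. For dated against plain it was 17.7%. Shares of all genes in the alternative set contrasts and single-set fits are not given here. No gene past a test changed direction in the alternatives run, but signs of genes that did not pass did change: Hox genes above 0 numbered 12 of 32 for DN against GFP and 15 without replicate 2 or 7. Depth limits the 7 untested genes.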
